A study of Mus musculus with 10 samples.

Results

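NEJ723 is a mouse liver tumour in which the long non-coding RNA H19 was almost absent, and it was set against 3 tumours of the same model in which H19 was abundant, NEJ634, NEJ687 and NEJ146. The tumours were chosen by their H19 level over tissue spots, in UMIs per 1e6 UMIs of those spots (CPM). The level was under 100 CPM for NEJ723 and over 1000 CPM for the other 3. The H19 contrast itself is therefore the choice and not a result. Every gene outside the stretch of chromosome 7 from H19 to Slc22a18 was then compared. Among 8259 genes whose level averaged 10 CPM or more over the 4 tumours, 29 were higher and 156 lower in NEJ723 than in each of the other 3 tumours by 2-fold or more, and these genes are described here. The fold is the ratio of CPM + 1, taken against the nearest of the 3 tumours, and is called the smallest fold below. Adding 1 CPM understates the fold of genes near 0.

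H19 is transcribed only from the maternal chromosome, is abundant in fetal liver and is switched off after birth. Its neighbour Igf2, a fetal growth factor, is transcribed from the paternal chromosome, and both genes share enhancers and an imprinting control region. Further along the same chromosome the maternally expressed genes Cdkn1c, a cell cycle inhibitor, Slc22a18, a membrane transporter, and Phlda2, a growth-restraining gene of the placenta, lie in another imprinted domain.

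Expression was measured on 10x Genomics Visium slides, where a thin frozen section gives up its RNA to a grid of barcoded spots and each captured molecule is counted once by its unique molecular identifier (UMI). The series holds 10 sections of 7 tissues, of which 7 sections of 4 tumours form this comparison: 1 each of NEJ723, NEJ634 and NEJ687, and 4 adjacent sections of NEJ146. The tumours came from ABC-Myc mice, in which Cre under the albumin enhancer and promoter removes a stop cassette and lets a CAG promoter drive human c-MYC in the hepatocyte lineage, on a C57BL/6J background. NEJ638, NEJ654 and NEJ677 carry the same hepatoblastoma label. The study's text gives 4 tumours, which it names as the other 4 tissues of the series, and 3 healthy livers, which it does not name. The labels mark no healthy liver, so NEJ638, NEJ654 and NEJ677 are called the 3 other tissues here. Alb was at 69835, 85699.9 and 51663 CPM in them and Afp at 9.63, 3.79 and 4.96. Ages were not given for single animals in the sources used here, and the human MYC transgene had no entry among the genes counted. Each tumour is 1 animal, so differences between tumours had no replicate check and no p-value was computed.

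NEJ723 had 43641797 UMIs over 2396 tissue spots, NEJ634 56536112 over 1890, NEJ687 57428022 over 4458 and the NEJ146 sections 83686641 to 117077925. NEJ146 stood apart in its processing: its libraries are labelled total RNA where the others are labelled polyA RNA, no position file was used for it, and its mitochondrial share of UMIs was 6.78 to 7.22% against 2.84% in NEJ723, 3.86% in NEJ634 and 3.42% in NEJ687. Without NEJ146 the counts were 32 genes higher and 151 lower. Y-linked transcripts were found in NEJ723 and NEJ687 and Xist in NEJ634 and NEJ146, so NEJ687 alone shared the sex of NEJ723. Both liver identity and tumour markers were present in NEJ723: the secreted proteins Alb and Ttr were at 7839 and 8196 CPM, the hepatocyte regulator Hnf4a at 123, the fetal liver protein Afp at 3280.2 and the fetal epithelial gene Dlk1 at 107. All slides carry the same barcode layout, and 4989 spot barcodes were shared between NEJ723 and each other section.

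H19 (ENSMUSG00000000031, minus strand, chr7:142575529-142578143, GRCm38) had 522 UMIs over the tissue spots of NEJ723, which is 12 CPM with a 95% exact Poisson interval of 11 to 13. A further 926 H19 UMIs lay in spots of that section outside the in-tissue call, at 35.4 CPM. The level was 2872 CPM in NEJ634, 9068 in NEJ687 and 6534, 5545, 5763 and 6407 in the NEJ146 sections. In NEJ723, 393 of 2396 tissue spots held an H19 UMI and no spot held more than 13, whereas every tissue spot of NEJ634 and NEJ146 and 4305 of 4458 tissue spots of NEJ687 held one. H19 was 80.2 CPM in NEJ638, 6.31 in NEJ654 and 4.86 in NEJ677, so the NEJ723 level lay between that of NEJ654 and that of NEJ638. Intervals of this kind cover counting error only.

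The genes that flank H19 did not share 1 direction. Igf2 was at 404 CPM in NEJ723, 267 in NEJ634, 435 in NEJ687 and 81.3 in NEJ146, so the H19-silent tumour lay within the range of the others. Its antisense transcript Igf2os was highest in NEJ723, at 31.7 CPM, with 21.7 in NEJ634, 13.6 in NEJ687 and 6.14 in NEJ146. So was Gm33148, a non-coding RNA between H19 and Igf2, at 3.60 CPM in NEJ723, 1.79 in NEJ634, 0.435 in NEJ687 and 0.174 in NEJ146. Cdkn1c was at 0.527 CPM in NEJ723, 21.2 in NEJ634, 52.2 in NEJ687 and 43.8 in NEJ146, and Slc22a18 at 0.390 CPM in NEJ723, 14.8 in NEJ634, 54.6 in NEJ687 and 32.7 in NEJ146, both far below the lowest comparison tumour. In NEJ638, NEJ654 and NEJ677 Slc22a18 stood at 72.4, 105 and 65.7 CPM and Cdkn1c at 6.80, 3.88 and 1.68, so NEJ723 was the lowest of the 7 tissues for both. Cd81, a tetraspanin lying between H19 and Cdkn1c, was at 228 CPM in NEJ723, 205 in NEJ634, 252 in NEJ687 and 217 in NEJ146, and Tssc4, a splicing-related gene, at 26.4 CPM in NEJ723, 24 in NEJ634, 31.2 in NEJ687 and 18.2 in NEJ146, with NEJ723 inside the range of the others. Kcnq1ot1, the paternally expressed non-coding RNA of the domain, was at 6.05 CPM in NEJ723, 5.47 in NEJ634, 2.42 in NEJ687 and 3.44 in NEJ146. Phlda2 lies just past Slc22a18 and therefore entered the comparison, and with 3 UMIs in NEJ723 it was at 0.0687 CPM in NEJ723, 9.82 in NEJ634, 34 in NEJ687 and 18.1 in NEJ146. Nap1l4, the next gene, was at 87.6 CPM in NEJ723, 78.1 in NEJ634, 78.4 in NEJ687 and 57.9 in NEJ146.

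**Figure D1:**
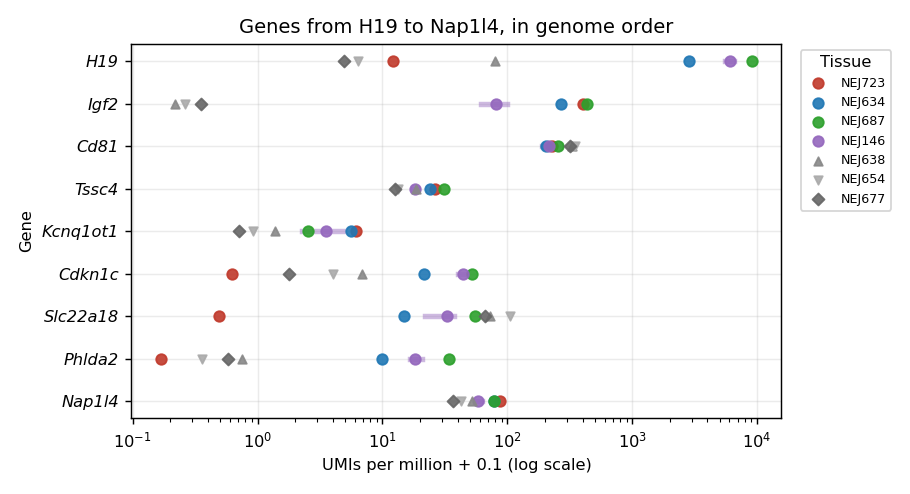
Levels of genes from H19 to Nap1l4 in genome order, as CPM + 0.1 on a log axis, one symbol per tissue, with NEJ146 pooled over its 4 sections and a bar for their range. The red NEJ723 symbol lies far left of the other tumours for H19, Cdkn1c, Slc22a18 and Phlda2 and beside them for Igf2, Cd81, Tssc4 and Nap1l4.

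The 250 bases before the RefSeq transcription start are shown for 3 genes that carry the contrast: S100g, higher in NEJ723 (chrX:162964600-162964849, minus strand), Vsig4, a macrophage gene lower there (chrX:96293439-96293688, minus strand), and Cyp2e1, a hepatocyte gene lower there (chr7:140763569-140763818, plus strand). They are sequences of build GRCm38.p6, written 5′ to 3′ along the gene, with the letters TATAAA and GGGCGG in capitals where a search of both strands found them. The GENCODE start is the same for S100g and Vsig4 and lies 80 bases before the RefSeq start for Cyp2e1, inside the window shown.
S100g: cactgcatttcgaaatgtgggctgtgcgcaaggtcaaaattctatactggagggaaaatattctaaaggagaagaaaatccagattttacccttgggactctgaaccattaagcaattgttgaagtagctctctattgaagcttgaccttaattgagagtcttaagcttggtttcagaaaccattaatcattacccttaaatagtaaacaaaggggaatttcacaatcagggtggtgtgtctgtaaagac
Vsig4: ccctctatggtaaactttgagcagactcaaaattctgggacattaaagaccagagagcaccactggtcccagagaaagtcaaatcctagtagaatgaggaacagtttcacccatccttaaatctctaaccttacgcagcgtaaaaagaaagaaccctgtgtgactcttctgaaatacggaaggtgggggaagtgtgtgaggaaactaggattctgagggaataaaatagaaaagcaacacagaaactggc
Cyp2e1: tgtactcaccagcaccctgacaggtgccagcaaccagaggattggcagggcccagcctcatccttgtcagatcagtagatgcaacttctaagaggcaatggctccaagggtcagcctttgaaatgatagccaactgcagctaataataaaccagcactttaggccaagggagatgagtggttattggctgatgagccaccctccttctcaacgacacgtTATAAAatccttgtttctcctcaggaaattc

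The TATA box letters TATAAA lay 31 bases before the start of Cyp2e1. Neither TATAAA nor GGGCGG, the core of a GC box, was found in the windows of S100g and Vsig4. A RefSeq promoter was matched by symbol for 19 of the 29 higher and 121 of the 156 lower genes. TATAAA was in 31 of the 121 promoters (25.6%) of lower genes and 4 of the 19 (21.1%) of higher genes, against 6.28% of the 6563 promoters of genes compared and 12.3% of all 19393. GGGCGG was in 29 (24%) of the lower and 12 (63.2%) of the higher ones, against 61.9% and 40.3%. The motif CAAAGTCCA of the hepatocyte factor HNF4 was in 2 (1.65%) promoters of lower genes and in none of the higher ones, against 0.387% of all promoters, and GAGGAAGT of the macrophage factor PU.1 in 7 (5.79%) and 1 (5.26%), against 2.36%. The C/EBP palindrome TTGCGCAA was in none of either set, against 0.18%, the MYC E box CACGTG in 9 (7.44%) and 1 (5.26%), against 6.55% of all promoters and 9.17% of those of genes compared, and CCAAT in 54 (44.6%) and 6 (31.6%), against 35.5% and 37%. These are matches of letters and were not read as binding sites.

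Among all 8259 genes, 0.351% were higher and 1.89% lower by the rule, and the median log2 ratio of NEJ723 to the mean of the other 3 was 0.15. TMM and DESeq2 factors moved that median to 0.01 and gave 23 higher and 158 to 159 lower genes, so the list medians below are to be read beside 0.15. The spread between adjacent NEJ146 sections was a median SD of 0.08 on the log2 scale over these genes, and 0.14 and 0.15 over the higher and lower ones, well under the 1 log2 unit of the rule. That spread covers sectioning of 1 tumour and not the spread between animals. In 15 of the 29 and 89 of the 156 genes, NEJ634 was the tumour nearest to NEJ723. Leaving NEJ634 out gave 179 higher and 241 lower genes, and leaving NEJ687 out gave 47 and 188, so the number of higher genes in particular rests on NEJ634. At the limit, Ica1 was the last gene counted as higher (32.9 CPM in NEJ723 against 3.29 to 15.8 in the other 3) and Inafm1 the first not counted (33.9 CPM in NEJ723 against 10.9 to 16.7). On the low side Akr1b7 was the last inside (8.13 CPM in NEJ723 against 17.4 to 107) and Ifi27l2a the first outside (15.2 CPM in NEJ723 against 31.4 to 104). Only Apoa4, S100g and Rbp2 were higher by 4-fold or more, whereas 55 genes were lower by that much.

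**Figure D2:**
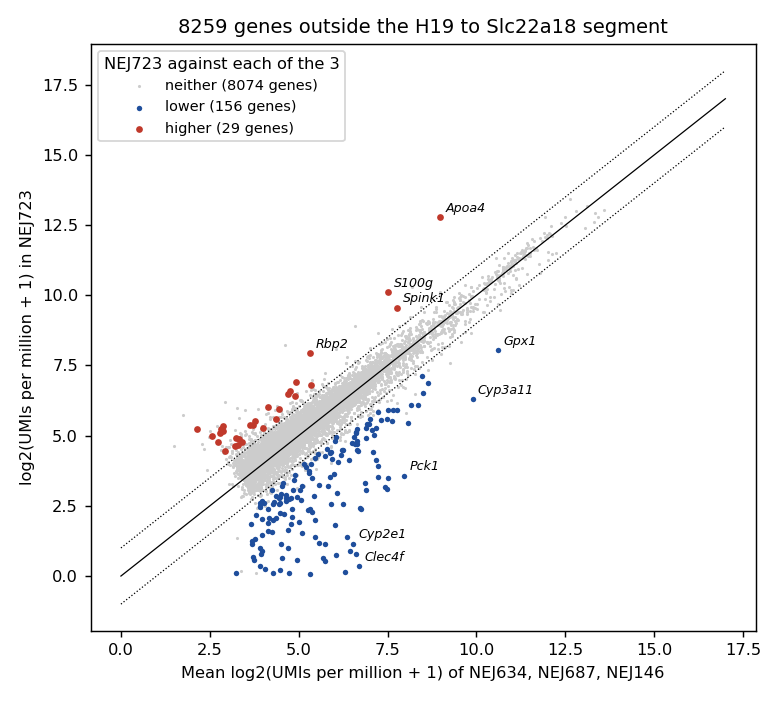
Each point is 1 of the 8259 genes, with the mean log2(CPM + 1) of NEJ634, NEJ687 and NEJ146 on the horizontal axis and log2(CPM + 1) in NEJ723 on the vertical axis. The solid line marks equal levels and the dotted lines a 2-fold difference from the mean. The 156 lower genes (blue) reach down to the zero level of NEJ723, and Apoa4 stands highest among the 29 higher genes (red).

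Among the genes higher in NEJ723, 3 that absorptive cells of the small intestine use to handle lipid, calcium and retinol led the list. Apoa4, an apolipoprotein of chylomicrons, was at 7069.8 CPM in NEJ723 (95% interval 7045 to 7095), 657 in NEJ634, 685 in NEJ687 and 298, 377, 285 and 166 in the 4 NEJ146 sections, a smallest fold of 10.3. No section of the other tumours came near the NEJ723 level. S100g, an intracellular calcium-binding protein induced by vitamin D, was at 1101 CPM against 224, 201 and 127, 124, 141 and 139.9, in the same order, with a smallest fold of 4.91. Rbp2, a cellular retinol-binding protein, was at 244 CPM against 55, 32.3 and 32.4, 28.2, 35.6 and 36, a smallest fold of 4.37. In the 3 other tissues Apoa4 was at 40.9, 60.7 and 58.6 CPM, S100g at 6.08, 0.918 and 2.24 and Rbp2 at 0.215, 0.0706 and 0.0509, each below all 4 tumours.

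The rest of the enterocyte list was not counted. Of 33 listed genes, 13 were compared, 3 were higher and none lower, with a median log2 ratio of 0.54. The intestinal transcription factors Cdx1 and Cdx2 were at 0.0687 and 0.0917 CPM in NEJ723, the brush-border enzymes Sis, Lct and Alpi at 0.0458, 0.412 and 0.206, and the peptide transporter Slc15a1 at 0.0229. Fabp2, the intestinal fatty acid-binding protein, was at 113 CPM in NEJ723, 101 in NEJ634, 74.9 in NEJ687 and 61.9 in NEJ146, and Vil1, a microvillus protein, at 5.32 CPM in NEJ723, 6.03 in NEJ634, 0.261 in NEJ687 and 1.93 in NEJ146. The list thus held members near 0, members shared with the other tumours and the 3 higher ones. Fabp6, an ileal bile acid-binding protein that the list leaves out, was lower, at 1.65 CPM in NEJ723, 148 in NEJ634, 82.4 in NEJ687 and 42.5 in NEJ146.

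Apoa4 lies on chromosome 9 in a cluster with Apoa1, Apoc3 and Apoa5, and its neighbours differed from it. Apoa1, the main protein of high-density lipoprotein, was at 7046 CPM in NEJ723, 4169.6 in NEJ634, 5499 in NEJ687 and 2551 in NEJ146. Apoc3, an inhibitor of lipoprotein lipase, was at 319 CPM in NEJ723, 621 in NEJ634, 607 in NEJ687 and 1143 in NEJ146. Apoa5, an activator of triglyceride clearance, was counted as lower, at 139.5 CPM in NEJ723, 364 in NEJ634, 327 in NEJ687 and 368 in NEJ146. Of 21 apolipoprotein and lipoprotein assembly genes compared, Apoa4 alone was higher and Apoa5 alone lower, with a median log2 ratio of 0.06 that turned to -0.08 with TMM or DESeq2 factors.

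Some further higher genes encode proteins of the cell surface, a grouping made after their values were seen and not counted as a list. Gpc3, a heparan sulfate proteoglycan used as an oncofetal marker of liver tumours, was at 30.6 CPM in NEJ723, 7.50 in NEJ634, 4.06 in NEJ687 and 3.67 in NEJ146. It was the 1 higher gene of 11 hepatoblast and stem genes compared, where Afp was at 3280.2 CPM in NEJ723, 4248 in NEJ634, 4083 in NEJ687 and 2044 in NEJ146 and Epcam at 58.8 CPM in NEJ723, 54.8 in NEJ634, 2.09 in NEJ687 and 7.40 in NEJ146. Aqp3, a water and glycerol channel, was at 39.9 CPM in NEJ723, 10.3 in NEJ634, 5.89 in NEJ687 and 3.95 in NEJ146. Car12, a membrane carbonic anhydrase, was at 36.4 CPM in NEJ723, 13.3 in NEJ634, 1.81 in NEJ687 and 1.14 in NEJ146. Ffar4, a receptor for long-chain fatty acids, was at 64 CPM in NEJ723, 22.1 in NEJ634, 22.9 in NEJ687 and 9.13 in NEJ146, and Trpm4, a calcium-activated cation channel, at 29 CPM in NEJ723, 10.8 in NEJ634, 8.03 in NEJ687 and 7.07 in NEJ146. Itgad, an integrin chain of tissue macrophages, was at 35.1 CPM in NEJ723, 2.55 in NEJ634, 8.53 in NEJ687 and 10.4 in NEJ146.

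Among intracellular proteins, Cirbp, a cold-inducible RNA-binding protein, was at 96.3 CPM in NEJ723, 34.3 in NEJ634, 25.6 in NEJ687 and 20.1 in NEJ146, and Nrbp2, a pseudokinase, at 89.5 CPM in NEJ723, 22.8 in NEJ634, 36.3 in NEJ687 and 18.4 in NEJ146. Pck2, the mitochondrial phosphoenolpyruvate carboxykinase, was at 120.0 CPM in NEJ723, 49.7 in NEJ634, 28.8 in NEJ687 and 17.3 in NEJ146. Secreted proteins included Spink1, a trypsin inhibitor made in pancreas and in many tumours, at 755 CPM in NEJ723, 317 in NEJ634, 336 in NEJ687 and 97.8 in NEJ146, and Enpp2, the enzyme autotaxin, at 40.5 CPM in NEJ723, 16.4 in NEJ634, 9.26 in NEJ687 and 9.59 in NEJ146. Pancreatic acinar genes were otherwise near 0: 13 of the 14 listed genes were under 1 CPM in NEJ723, and Cela1 was at 12.8 CPM in NEJ723, 10.3 in NEJ634, 12.2 in NEJ687 and 16.8 in NEJ146. The other 15 higher genes, Sft2d3, Gm16573, 1500011B03Rik, Rps6kl1, Il3ra, Tubb2b, Ifrd1, Npb, Fstl3, Baiap2l2, Kctd17, Sbsn, Clca3a1, Arhgap27 and Ica1, had smallest folds of at most 2.58.

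**Figure D3:**
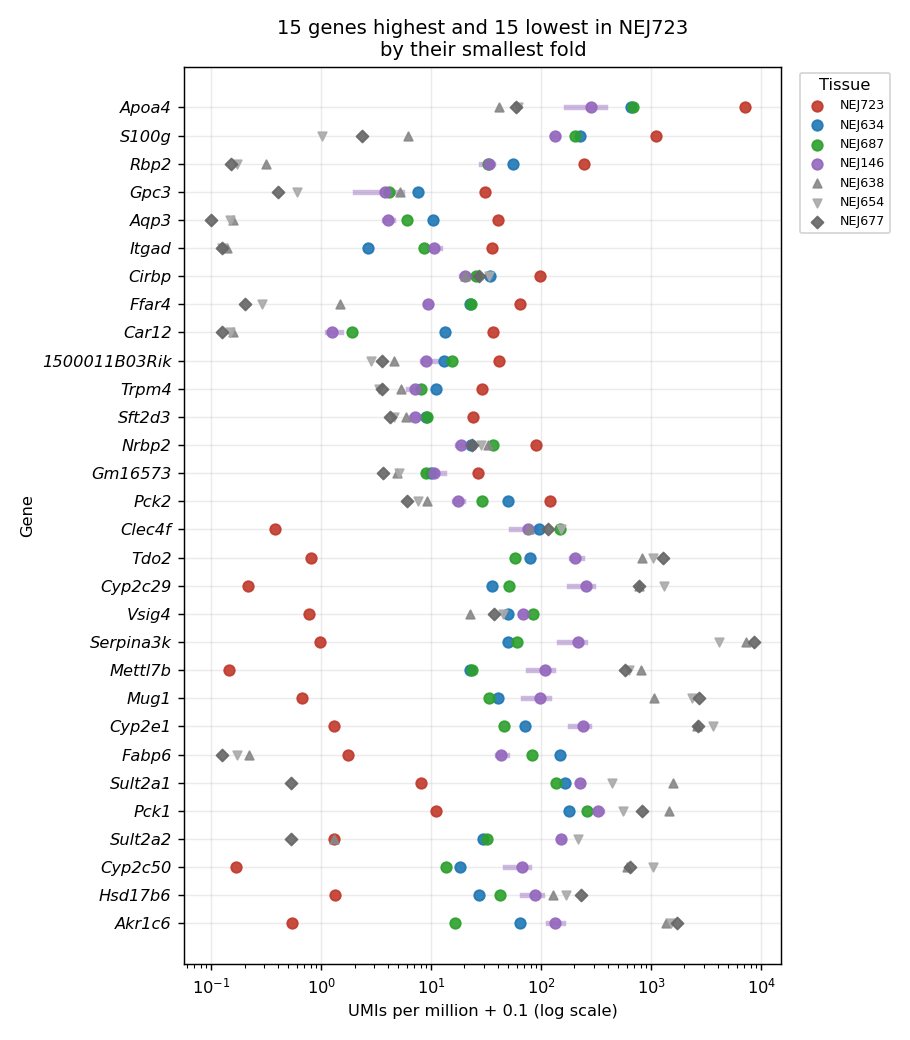
Levels of the 15 genes with the largest smallest fold higher in NEJ723 (top) and the 15 lower (bottom), as CPM + 0.1 on a log axis. Coloured circles are the 4 tumours, with a bar for the range of the 4 NEJ146 sections, and grey symbols are the 3 other tissues. Apoa4, S100g and Rbp2 lie right of every other tissue in NEJ723, and Clec4f and Vsig4 lie left of all of them.

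The gene with the largest smallest fold in the low direction was a marker of Kupffer cells, the resident macrophages of liver sinusoids. Clec4f, a C-type lectin of these cells, had 12 UMIs in NEJ723, or 0.275 CPM (95% interval 0.142 to 0.480), against 96 in NEJ634, 146 in NEJ687 and 84.2, 88.3, 75 and 53.3 in the NEJ146 sections, a smallest fold of 60.1. A Clec4f UMI was seen in 12 of 2396 tissue spots of NEJ723 and in 1250 of 1890 in NEJ634. Vsig4, a complement receptor of Kupffer cells, was at 0.665 CPM against 49.2, 83.7 and 68.5, 73.5, 66.2 and 64.3, a smallest fold of 30.2. For both genes the lowest section of the other tumours was far above NEJ723. Marco, a scavenger receptor, was at 7.65 CPM in NEJ723, 150.3 in NEJ634, 413 in NEJ687 and 88.1 in NEJ146, and Timd4, a receptor for dying cells, at 1.47 CPM in NEJ723, 10.2 in NEJ634, 19.2 in NEJ687 and 10.2 in NEJ146. Cd5l, a secreted macrophage protein, was at 90.6 CPM in NEJ723, 233 in NEJ634, 609 in NEJ687 and 338 in NEJ146, and Adgre1, a pan-macrophage surface receptor, at 11 CPM in NEJ723, 23.9 in NEJ634, 40.1 in NEJ687 and 24.1 in NEJ146.

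Of 18 macrophage genes compared, 6 were lower (5 with TMM or DESeq2 factors) and none higher, with a median log2 ratio of -0.62. Itgad, the integrin chain of tissue macrophages given above, is not on this list and was higher, with a smallest fold of 3.18. The complement gene C1qa was at 124 CPM in NEJ723, 156 in NEJ634, 239.7 in NEJ687 and 187 in NEJ146, and Cd68, a lysosomal protein of macrophages, at 48.6 CPM in NEJ723, 54.4 in NEJ634, 69.1 in NEJ687 and 49.4 in NEJ146. Cd68 in NEJ723 was close to NEJ146, and C1qa was lowest in NEJ723. Folr2, a folate receptor of resident macrophages with a mean level under the limit for counting, was at 0.344 CPM in NEJ723, 13.4 in NEJ634, 14.7 in NEJ687 and 8.58 in NEJ146. Spic, a transcription factor of macrophages that clear red cells, was at 16.1 CPM in NEJ723, 8.86 in NEJ634, 14.6 in NEJ687 and 13 in NEJ146. The summed level of the 20 listed genes was 1084 CPM in NEJ723, 1977 in NEJ634, 2905 in NEJ687 and 1871 in NEJ146, where the single sections ranged from 1586 to 1993. In a whole section, fewer cells of a type and less RNA per cell cannot be told apart.

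Genes of the vessel wall and of antigen presentation included further low genes. The sinusoidal endothelial genes Clec4g, a lectin (2.66 CPM in NEJ723 against 18.1 to 33.6 in the other 3), and Fcgr2b, an inhibitory Fc receptor (7.36 CPM in NEJ723 against 23.8 to 38.4), were lower, and 14 of 16 endothelial genes compared were not counted. Pecam1, a general endothelial adhesion protein, was at 13.9 CPM in NEJ723, 16.6 in NEJ634, 18.5 in NEJ687 and 14.5 in NEJ146, and Stab1, a sinusoidal scavenger receptor, at 42.3 CPM in NEJ723, 48.1 in NEJ634, 45.5 in NEJ687 and 33.4 in NEJ146. All 3 class II antigen-presenting chains compared and their chaperone were lower: H2-Aa was at 6.10 CPM in NEJ723 against 24.1 to 38, H2-Ab1 at 10.3 CPM in NEJ723 against 35.8 to 45, H2-Eb1 at 5.66 CPM in NEJ723 against 19.3 to 36.4 and Cd74 at 24.7 CPM in NEJ723 against 79.3 to 107. Of 21 interferon and antigen presentation genes, 6 were lower, and the class I genes B2m and H2-K1 were not, at 686 CPM in NEJ723 against 914 to 1035 and 305 CPM in NEJ723 against 425 to 595. Stromal genes held 2 low members of 21 compared (3 with TMM or DESeq2 factors), the proteoglycan Dcn (37.7 CPM in NEJ723 against 99.2 to 178) and Reln, a matrix protein of stellate cells (5.91 CPM in NEJ723 against 18.1 to 32.8). Dcn is also the low gene in a list of 20 imprinted genes compared that leaves out Phlda2, which was lower as well, and the list's median log2 ratio was 0.47.

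Enzymes of hepatocytes, the parenchymal cells of liver, were also among the lower genes, and the P450 family held more of them than any other list. Of 29 cytochrome P450 genes of families 1 to 4 compared, 18 were lower and none higher, a median log2 ratio of -1.90. Cyp2e1, the ethanol-oxidising P450 of hepatocytes near the central vein, had 53 UMIs in NEJ723, or 1.21 CPM (95% interval 0.910 to 1.59), against 70.5 in NEJ634, 45.6 in NEJ687 and 264, 270.1, 234 and 182 in the NEJ146 sections, a smallest fold of 21. The smallest log2 ratio of Cyp2e1 was -4.39. With each spot weighted equally, the 182 NEJ723 spots of under 500 UMIs count as much as others. The ratio then turned its sign to 1.17, so Cyp2e1 was no longer lower in NEJ723 than in each of the 3 tumours. Cyp2c29 was at 0.115 CPM in NEJ723, 35.2 in NEJ634, 50.9 in NEJ687 and 255 in NEJ146, from 5 UMIs in NEJ723, and Cyp2c50 at 0.0687 CPM in NEJ723, 18 in NEJ634, 13.5 in NEJ687 and 66.4 in NEJ146, from 3. The most abundant of them, Cyp3a11, was still detected, at 77.9 CPM in NEJ723, 529.9 in NEJ634, 773 in NEJ687 and 2078 in NEJ146. Cyp4a14 and Cyp4a10, fatty acid hydroxylases, were at 4.42 CPM in NEJ723 against 52.3 to 258 and 1.21 CPM in NEJ723 against 10.5 to 78.9. The summed level of the 75 P450 genes was 849 CPM in NEJ723, 1873 in NEJ634, 2587 in NEJ687 and 5143 in NEJ146.

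Conjugating enzymes and esterases were among the same low genes. Of 5 sulfotransferases compared 3 were lower, led by Sult2a1 (8.02 CPM in NEJ723 against 136 to 222) and Sult2a2 (1.19 CPM in NEJ723 against 29.5 to 152), which sulfate steroids. Of 8 Ces carboxylesterases 4 were lower, all of the Ces1 cluster on chromosome 8, with Ces1g at 2.96 CPM in NEJ723 against 26.8 to 94 and Ces1d at 11.3 CPM in NEJ723 against 40.4 to 137. In the list of other drug metabolism genes, 6 of 21 were lower, with a median log2 ratio of -1.30. Gstm3, a glutathione transferase, was at 10.2 CPM in NEJ723 against 73.5 to 455, and Aox3, an aldehyde oxidase, at 0.733 CPM in NEJ723 against 9.19 to 30.1. Nr1i3, the nuclear receptor that induces many of these enzymes, was the 1 low gene of 17 hepatocyte transcription factors compared, at 13.6 CPM in NEJ723, 29.1 in NEJ634, 36.7 in NEJ687 and 43.3 in NEJ146, and was not counted with TMM or DESeq2 factors. Hnf4a, the main regulator of hepatocyte identity, was at 123 CPM in NEJ723, 123 in NEJ634, 178 in NEJ687 and 127 in NEJ146.

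By position in the liver lobule, low genes were found on both sides. Among 9 pericentral and Wnt target genes compared 6 were lower, with a median log2 ratio of -1.42: beside Cyp2e1 and Nr1i3 these were Lect2, a secreted chemotactic protein (1.90 CPM in NEJ723 against 23 to 48.7), Gulo, the last enzyme of vitamin C synthesis (2.80 CPM in NEJ723 against 15 to 65.2), Cyp1a2 (0.985 CPM in NEJ723 against 11.4 to 53.5) and Glul, the glutamine synthetase of the rim around central veins (36.4 CPM in NEJ723 against 89 to 116). Axin2 and Lgr5, direct targets of Wnt signalling, were too low to be counted, at 0.0917 CPM in NEJ723, 1.66 in NEJ634, 0.749 in NEJ687 and 1.74 in NEJ146 and 0.0687 CPM in NEJ723, 2.14 in NEJ634, 0.784 in NEJ687 and 1.40 in NEJ146. Of 15 periportal genes 4 were lower, Pck1, Ctsc, Cyp2f2 and Pigr. With TMM or DESeq2 factors the counts were 5 pericentral and 3 periportal genes. Cyp2f2, a periportal P450, was at 8.16 CPM in NEJ723 against 20.3 to 76.7, and Pigr, which carries immunoglobulin A into bile, at 3.78 CPM in NEJ723 against 8.83 to 48.

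Gluconeogenesis and glycogen genes held 3 lower genes and 1 higher one. Pck1, the cytosolic phosphoenolpyruvate carboxykinase that controls the pathway, was at 11 CPM (95% interval 9.99 to 12) in NEJ723 against 177 in NEJ634, 258 in NEJ687 and 333, 358, 306 and 331 in the NEJ146 sections, a smallest fold of 14.9. Its mitochondrial counterpart Pck2 went the other way, as given above. G6pc, which releases free glucose, was at 21.6 CPM in NEJ723, 71.7 in NEJ634, 139 in NEJ687 and 98.5 in NEJ146, and Tat, which breaks down tyrosine, at 7.38 CPM in NEJ723, 73.2 in NEJ634, 136 in NEJ687 and 163 in NEJ146. The remaining 13 of 17 genes compared were not counted, among them Pcx, the entry enzyme pyruvate carboxylase, at 519 CPM in NEJ723, 361 in NEJ634, 676 in NEJ687 and 452 in NEJ146, and Fbp1, fructose bisphosphatase, at 73.6 CPM in NEJ723, 188 in NEJ634, 135 in NEJ687 and 228 in NEJ146. None of 19 glycolysis genes compared was counted, with a median log2 ratio of -0.23.

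Amino acid breakdown gave 5 lower genes of 28 compared and a median log2 ratio of -0.76. Tdo2, which opens the tryptophan ring, was at 0.710 CPM in NEJ723, 79.5 in NEJ634, 57.2 in NEJ687 and 201 in NEJ146, a smallest fold of 34.1, and Kmo, a later enzyme of that pathway, at 5.09 CPM in NEJ723 against 15.8 to 25.7. Otc, a urea cycle enzyme, was at 57.1 CPM in NEJ723 against 125 to 198, near the limit. Bile acid genes were lower in 6 of 20 compared, with a median log2 ratio of -1.26. Slc27a5, which activates bile acids before conjugation, was at 16.7 CPM in NEJ723 against 85.8 to 231, the uptake carrier Slco1a4 at 0.275 CPM in NEJ723 against 7.55 to 34.2, and Abcg5 and Abcg8, partners that export sterols into bile, at 8.39 CPM in NEJ723 against 26.8 to 65.7 and 10.5 CPM in NEJ723 against 33.5 to 83.2. Fabp6, given above, had a smallest fold of 16.4 and was also nearly absent from the 3 other tissues, at 0.117, 0.0706 and 0.0255 CPM.

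Lipid genes were lower in part. Scd1, the fatty acid desaturase, was at 10.6 CPM in NEJ723, 208 in NEJ634, 82.6 in NEJ687 and 198 in NEJ146, and Thrsp, a lipogenic regulator, at 3.92 CPM in NEJ723, 62.5 in NEJ634, 17.7 in NEJ687 and 58.2 in NEJ146, the 2 low genes of 14 fatty acid synthesis genes. Of 25 genes of fatty acid oxidation 4 were lower (3 with TMM or DESeq2 factors), with Acaa1b, a peroxisomal thiolase, at 67.5 CPM in NEJ723 against 248 to 482 and Cd36, a fatty acid carrier, at 18.2 CPM in NEJ723 against 37.9 to 65. None of 23 cholesterol genes was counted.

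Secreted liver proteins formed a small low group within long lists that were mostly not counted. Serpina3k, a protease inhibitor, was at 0.871 CPM in NEJ723, 49.1 in NEJ634, 59.9 in NEJ687 and 213 in NEJ146, a smallest fold of 26.8, and the acute phase proteins Saa1 and Orm1 at 0.550 CPM in NEJ723 against 16.6 to 27.4 and 8.96 CPM in NEJ723 against 44.8 to 225. Of 30 acute phase genes 5 were lower, with a median log2 ratio of -0.53, while the list's summed level in NEJ723 (30689.7 CPM) lay between NEJ146 (23521) and NEJ687 (39590.5). Of 36 coagulation and complement genes 5 were lower, including the lectins Mbl1 (3.14 CPM in NEJ723 against 15.3 to 24.6) and Mbl2 (4.28 CPM in NEJ723 against 17 to 45.6) and the terminal complement protein C6 (1.01 CPM in NEJ723 against 8.84 to 22.4). Mug1, a broad protease trap, was at 0.573 CPM in NEJ723, 39.9 in NEJ634, 33.5 in NEJ687 and 96.4 in NEJ146. Hamp2, a hepcidin-like peptide, varied widely among the tumours that expressed it, at 6.74 CPM in NEJ723, 151 in NEJ634, 15.4 in NEJ687 and 124 in NEJ146. Spp1, osteopontin, was at 31.5 CPM in NEJ723, 351 in NEJ634, 68.1 in NEJ687 and 110.4 in NEJ146 and was the 1 low gene of 8 biliary genes, whose median log2 ratio was 1.20.

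The lists held 83 of the 156 lower genes and 5 of the 29 higher ones. The share of all genes compared that lay on a list was not computed, and the lists were chosen with earlier results of these data known. These counts were therefore not read as a result. Among the lower genes on no list, Mettl7b, a methyltransferase-like protein of lipid droplets with 2 UMIs in NEJ723, was at 0.0458 CPM in NEJ723, 22.3 in NEJ634, 23.5 in NEJ687 and 109 in NEJ146. Hsd17b6, a steroid dehydrogenase, was at 1.24 CPM in NEJ723, 26.8 in NEJ634, 42 in NEJ687 and 87.9 in NEJ146, and Akr1c6, a ketosteroid reductase, at 0.435 CPM in NEJ723, 63.5 in NEJ634, 16.3 in NEJ687 and 133 in NEJ146. Both enzymes, like Adh1, the alcohol dehydrogenase (14 CPM in NEJ723 against 94.4 to 323), Car3, a cytosolic carbonic anhydrase (4.17 CPM in NEJ723 against 38.7 to 220.3), and Uox, which breaks down uric acid (42.6 CPM in NEJ723 against 168 to 483), are products of mature hepatocytes. Gpx1, a glutathione peroxidase, was at 264 CPM in NEJ723, 1284 in NEJ634, 1128 in NEJ687 and 2652 in NEJ146, and Aqp9, the glycerol channel of hepatocytes, at 1.60 CPM in NEJ723, 27.8 in NEJ634, 48.7 in NEJ687 and 58.1 in NEJ146. Over all 156 the smallest fold had a median of 3.02.

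Sex was not balanced in the comparison, and some liver genes differ between the sexes. Of 10 sex-biased liver genes compared 4 were lower, among them Sult2a1, C6 and Acot3. The part of sex in the differences was not tested.

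In several lists no gene passed the limit in either direction. Among them were the insulin-like growth factor axis (12 genes compared, median log2 ratio -0.29), let-7 targets (12, 0.37), DNA replication and mitosis (36, 0.25), MYC network and nucleolar genes (32, 0.36), the unfolded protein and integrated stress response (21, 0.49), hypoxia response (16, 0.28), p53 targets (12, 0.31), immediate early genes (10, 0.25) and imprint regulators and polycomb genes (18, 0.37). Cytosolic ribosomal protein genes were likewise not counted (80, 0.17), nor were mitochondrial genome genes (12, -0.70), whose share of UMIs was highest in NEJ146. Erythroid (13, -0.35), neutrophil lineage (11, -0.33) and mast cell and megakaryocyte genes (4, 0.59) held no counted gene either.

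**Figure D4:**
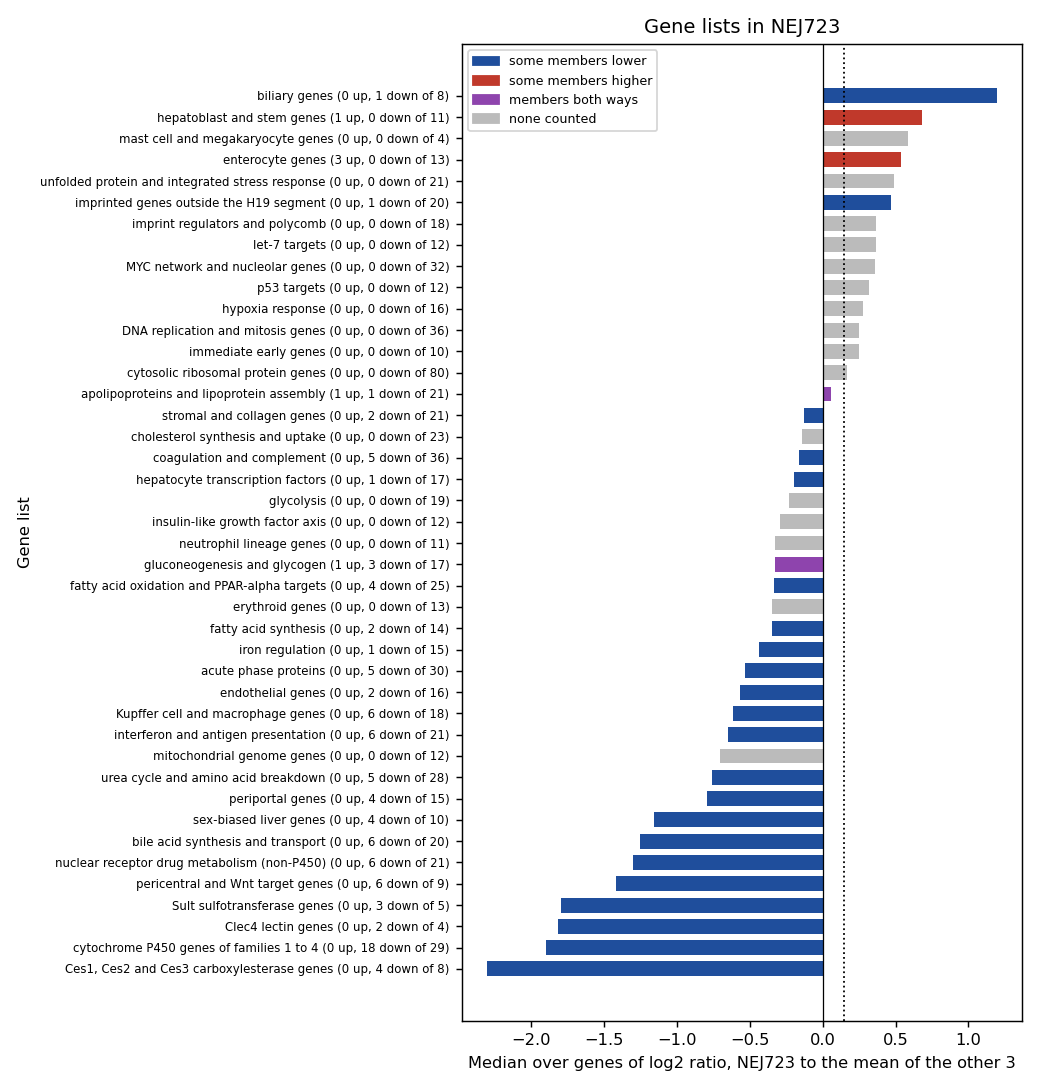
Bars give the median over compared genes of the log2 ratio of NEJ723 to the mean of the other 3 tumours for each gene list or family with at least 4 genes compared, with the number higher and lower in brackets. The dotted line is the median of all 8259 genes, at 0.15. Carboxylesterases, P450 genes, Clec4 lectins and sulfotransferases lie furthest left, and biliary genes furthest right.

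Other cell types differed between the sections in summed level. Erythroid genes summed to 2881 CPM in NEJ723, 1186 in NEJ634, 9639 in NEJ687 and 9941 in NEJ146, neutrophil lineage genes to 670.3 CPM in NEJ723, 939.7 in NEJ634, 1558 in NEJ687 and 663 in NEJ146, lymphocyte genes to 42 CPM in NEJ723, 66.2 in NEJ634, 52.1 in NEJ687 and 53.6 in NEJ146, stromal genes to 1645 CPM in NEJ723, 3519 in NEJ634, 1161 in NEJ687 and 1384 in NEJ146 and biliary genes to 565 CPM in NEJ723, 796 in NEJ634, 108 in NEJ687 and 189 in NEJ146. Endothelial genes summed to 412 CPM in NEJ723, 502 in NEJ634, 615 in NEJ687 and 485 in NEJ146. NEJ723 was the lowest of the 4 tumours for lymphocyte and endothelial genes, as it was for the macrophage list above, and lay inside the range of the others for the rest. Of the 156 lower genes 11 were on a list of another liver or blood cell type, and none of the 29 higher ones was. Such lists were short. The macrophage, endothelial, stromal, biliary, erythroid and neutrophil ones had 18, 16, 21, 8, 13 and 11 of the 8259 genes compared. A count of none among the 29 was therefore not read as a result. The enterocyte list, which had 3 higher genes, was not among these lists. With totals taken without mitochondrial and erythroid genes, 27 of the 29 and all 156 remained. The part of cell composition in the differences was not tested for any gene.

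The values that chose the genes were also laid out over parts and spots of the NEJ723 section, as a description that adds no support, since these are the same counts. The tissue was divided at the median row and median column of its spots into 4 parts of 424 to 767 spots. Of the 29 higher genes, 25 to 28 kept a 2-fold difference in 3 of the parts and 18 in the lower right one. Of the 156 lower genes, 137 to 151 did so in each part. In every one of the 4 parts at once, 16 of the 29 and 124 of the 156 kept it. H19 was at 9.58 to 15 CPM in these parts, Apoa4 at 6824 to 7403 and Cyp2e1 at 0.330 to 2.27. Per spot of at least 500 UMIs, the 156 lower genes summed to a median of 2606 CPM in NEJ723, with 95% of spots under 3685. In NEJ634 95% of spots were above 5019, in NEJ687 above 8272 and in the NEJ146 sections above at least 8894. Apoa4 per spot had a median of 7046 CPM in NEJ723 with 95% of spots above 4467, while 95% of spots were under 1289.8 in NEJ634, under 1524 in NEJ687 and under at most 1077 in the NEJ146 sections. A spot can hold several cells, and these spots are parts of 1 section and not replicates.

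The 3 other tissues, which the choice of genes did not use, lay on the same side of NEJ723 as the comparison tumours for most genes of both sets. All 3 were above NEJ723 for 146 of the 156 lower genes (93.6%, against 22.5% of all genes compared), and all 3 were below it for 28 of the 29 higher genes (96.6%, against 66.6%). The levels in NEJ723 and in the comparison tumours both chose the genes, so these shares, and those that follow, are a description and support nothing. For 103 lower genes (66%, against 15.2%) all 3 tissues were above every one of the 3 comparison tumours. In NEJ638, NEJ654 and NEJ677 the level of Cyp2e1 was 2593, 3599 and 2657 CPM, that of Serpina3k 7309, 4166 and 8620.4, and that of Pck1 1437, 555 and 818. For 21 lower genes (13.5%, against 49% of all genes compared) all 3 tissues were instead below every comparison tumour. These held Marco (27.9, 25.5 and 26.9), Vsig4 (22.5, 44.4 and 37.1), the class II genes H2-Aa, H2-Ab1, H2-Eb1 and Cd74, and the tumour-expressed genes Fabp6, Phlda2 and Amn, a partner of the cubilin receptor (1.07, 0.659 and 0.229). Enpp2 was the higher gene that lay above NEJ723 in all 3 tissues, at 65.1, 48.1 and 57.9.

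Spots with little and with much H19 were also compared inside the 3 H19-expressing tumours, as the 25% of spots with the lowest and the 25% with the highest H19 share of UMIs, called H19-low and H19-high spots. The counts of these same tumours chose the genes, so the shares in this and the next paragraph are a description and add no support. NEJ634 had a wide range, with 500.4 CPM in the low and 5882 in the high spots. There the 156 genes had a median log2 ratio of low over high spots of -1.58, and 108 of them (69.2%, against 2.91% of all genes compared) were 2-fold or more lower in the H19-low spots. The 29 higher genes had a median of 0.48, with 7 of them (24.1%, against 1.62%) 2-fold or more higher. Clec4f had a log2 ratio of -3.37, Vsig4 of -3.44, Cyp2e1 of -3.06 and Pck1 of -3.10, each lower in H19-low spots, and Itgad of 1.85 and Aqp3 of 1.24, each higher. Apoa4 was at 0.31, and S100g went the opposite way, at -1.18, since it was lower in H19-low spots.

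In NEJ687 and NEJ146 the median of the 156 genes had the opposite sign, while 30 of them in NEJ687 and 29 to 34 in the NEJ146 sections had a ratio below 0. The H19-low spots still held 6530.4 CPM of H19 in NEJ687 (against 12274 in the high spots) and 3394 to 3765 in the NEJ146 sections (against 8107 to 9831). All of these were above the level over all tissue spots of NEJ634. The median log2 ratio of the 156 genes was 0.67 in NEJ687 and 0.70 to 0.85 in the 4 NEJ146 sections, with 58 and 65 to 71 genes 2-fold or more higher in the H19-low spots. These were 37.2% in NEJ687, against 2.37% of all genes compared, and 41.7 to 45.5% in NEJ146, against 3.4 to 4.99%. Cyp2e1 had a log2 ratio of 1.92 in NEJ687 and 2.17 to 2.72 in NEJ146, and Serpina3k one of 3.16 and 3.61 to 4.39. Clec4f and Vsig4 were nearer to 0 in NEJ146, at -0.13 to 0.50 and -0.28 to 0.04. The class II gene H2-Aa was higher in H19-low spots of all 3 tumours, at 0.79 in NEJ634, 0.94 in NEJ687 and 2.05 to 2.52 in NEJ146. The 29 higher genes had a median of 0.11 in NEJ687 and -0.07 to 0.19 in the NEJ146 sections. In NEJ687, 3 of them (10.3%, against 0.145% of all genes compared) were 2-fold or more lower in H19-low spots and 2 (6.9%, against 2.37%) higher. In the NEJ146 sections 1 to 6 (3.45 to 20.7%, against 0.206 to 0.593%) were lower and 2 to 3 (6.9 to 10.3%, against 3.4 to 4.99%) higher. Itgad and Aqp3 had the opposite sign to NEJ634. Itgad was at -1.45 in NEJ687 and -1.46 to -0.88 in NEJ146, and Aqp3 at -1.26 and -1.21 to -0.64. S100g was lower in H19-low spots here too, at -1.25 and -1.08 to -0.88, and Apoa4 was at 0.66 and 0.34 to 0.88.

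Depth and other cell types differed between these spots. The median UMIs per spot were 30685.5 in H19-low and 35544.0 in H19-high spots of NEJ634, and 14741.5 and 10999.0 in NEJ687. In the NEJ146 sections they ranged over 18562 to 25096 and 14055 to 21283. The summed erythroid list had a log2 ratio of -2.03 in NEJ634, 0.95 in NEJ687 and 0.17 to 2.01 in NEJ146, the neutrophil list -1.23, 0.96 and 1.34 to 2.22, and the biliary list 1.60, 2.04 and 2.38 to 2.91. Their part in these ratios was not tested. Against the H19-low spots of NEJ634 alone, 71 of the 156 genes kept a 2-fold difference to NEJ723, as did 21 of the 29. Clec4f was at 16.9 CPM and Cyp2e1 at 13 CPM in those spots, above NEJ723 but far below the H19-high spots, at 184 and 115.

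**Figure D5:**
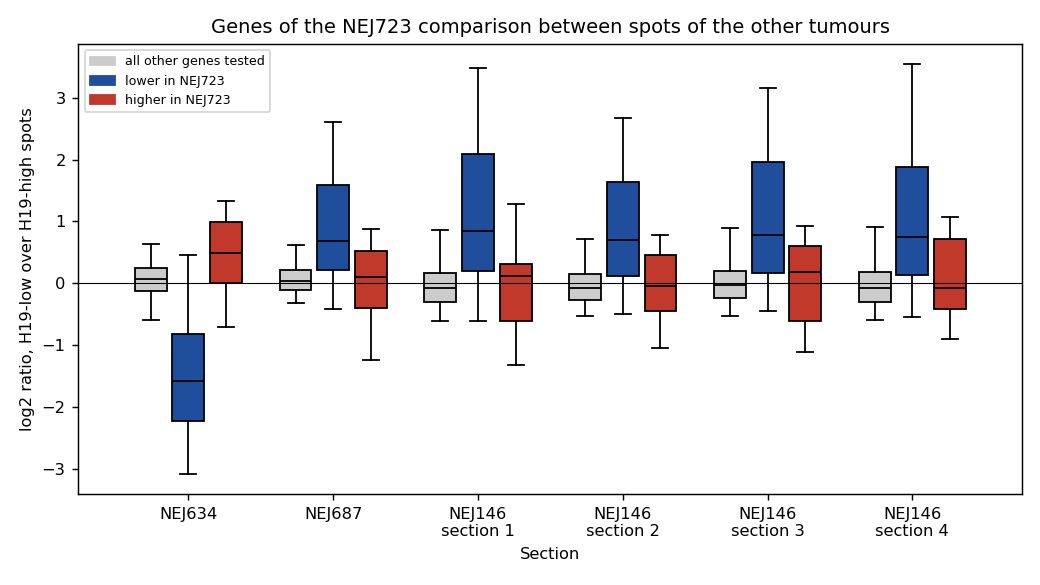
Boxes show, over genes, the log2 ratio of CPM + 1 in the 25% of spots with the lowest H19 to that in the 25% with the highest, in each section of the 3 H19-expressing tumours. Boxes span the middle 50% of genes with the median as a line, and whiskers reach all but the outer 5% on each side. The genes lower in NEJ723 (blue) lie below 0 in NEJ634 and above 0 in NEJ687 and in all 4 NEJ146 sections, while all other genes compared (grey) are centred near 0.

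The genes counted were scattered over the genome. The median log2 ratio of the genes compared was 0.09 to 0.19 on every autosome and on X. The share of genes counted ran from 0.725% on chromosome 16 to 4.9% on chromosome 19, which held 14 lower and 1 higher gene. Chromosome 7 outside the H19 segment held 18 lower and 3 higher of 597 genes (3.52%). Within 5 Mb of that segment, Cyp2e1 and Ifitm1 were the lower genes among 47 before it (4.26%) and Phlda2 among 8 after it (12.5%). Over all genes compared 1.89% were lower and 0.351% higher. Stretches with at least 3 lower genes no more than 500 kb apart were the class II genes H2-Ab1, H2-Aa and H2-Eb1 on chromosome 17, Cyp2c37, Cyp2c50 and Cyp2c70 on 19, Cyp3a11, Cyp3a25 and Cyp3a59 on 5, Cyp2a5, Cyp2a12 and Cyp2f2 on 7, Ces1b, Ces1d, Ces1e and Ces1g on 8, and Fcgr2b, Fcgr4 and Nr1i3 on 1. The P450 and Ces1 clusters hold similar copies between which reads could be split.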

How the data were processed

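Spatial RNA was measured on Visium sections of 7 mouse tissues. The authors deposited UMI counts per gene and spot, not normalized, in matrices whose headers name Cell Ranger. Their methods name Space Ranger, the submitters' processing notes name Cell Ranger 6.0, Space Ranger 1.3 and build mm10, and the build for NEJ146 was not given in the sources used here. Gene positions are those of GENCODE M21 (GRCm38), matched by gene ID for 31011 of 31053 genes.

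Tissue spots were those the authors' position files call in tissue, and for NEJ146, used without a position file, those with at least 8000 UMIs. Its 4 adjacent sections were pooled by summing. Counts were summed over tissue spots, divided by the total of those spots and given per 1e6 UMIs (CPM). Genes from H19 to Slc22a18 were left out, and those averaging 10 CPM or more over the 4 tumours were compared by the ratio of CPM + 1, with a 2-fold limit against each of the 3 tumours. With 1 tumour against 3, no test was run. Lists are described by counts and by the median log2 ratio of NEJ723 to the mean log2 of the other 3, beside that of all genes compared. Intervals are 95% exact Poisson intervals. No doublet caller was used, since a spot can hold several cells.

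The tumours, genes and 40 lists were chosen with earlier results of these data known. Genes were named by rule as H19, the 15 genes with the largest smallest fold in each direction, up to 4 counted genes of each list and those just inside and outside the limit. Other genes were named after their values were seen. Alternatives changed the pseudocount, filter, fold, total, spots and tumours used, and TMM (edgeR 4.0.16) and DESeq2 1.42.0 factors replaced the total. Analyses used Python 3.11.15, pandas 2.3.3, scipy 1.17.1 and R 4.3.3, and the counting of genes was tested on simulated data.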

Additional observations from a re-analysis of the deposited data

Results flagged for a closer look

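In the NEJ146 sections, 2 of 82 named genes had a section apart from the other 3 by Dixon's criterion for 4 samples, a criterion that chance alone meets in about 5% of groups. Car12 was highest in section 2, at 1.39 CPM, and Otc was highest in section 4, at 220.0 CPM. Neither touches the place of NEJ723, which had the most Car12 and the least Otc of the 4 tumours.

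H19 was at 35.4 CPM in the spots of NEJ723 outside the in-tissue call, above the upper bound of 13 CPM in tissue. Those 2593 spots held 26156263 UMIs, and in them 11 of the 29 higher and 149 of the 156 lower genes kept a 2-fold difference. Off-tissue spots of NEJ634 and NEJ687 held H19 at 2921 and 6218 CPM, and the origin of the RNA in off-tissue spots was not tested.

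The genes lower in NEJ723 had a median log2 ratio of H19-low over H19-high spots of -1.58 in NEJ634 and of 0.70 to 0.85 in the 4 NEJ146 sections. The signs are opposite in every section, and the difference between the tumours was not tested.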

How the results depend on the processing

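No paired analysis was possible because each tissue is a group of its own and replicate numbers only name the sections of NEJ146. The number of genes higher in NEJ723 was 29 and moved to 19 with a pseudocount of 5 CPM, 79 with a mean of at least 1 CPM, 6 with a mean of at least 50 CPM, 88 without a filter, 169 at 1.5-fold, 3 at 4-fold, 72 with each spot weighted equally and 260 against NEJ687 alone. The number lower was 156 and moved to 244 with a mean of at least 1 CPM or no filter, 70 with a mean of at least 50 CPM, 327 at 1.5-fold, 55 at 4-fold and 355 against NEJ687 alone. Leaving out 1 section at a time gave 29 to 179 higher and 154 to 241 lower genes, with both upper values without NEJ634, and leaving out all 4 NEJ146 sections gave 32 and 151. With only the 25% of NEJ634 spots with the lowest H19, an alternative chosen after seeing the data, 69 genes were lower, and with only the 25% with the highest 94 were higher. The remaining alternatives stayed within 1.5-fold of these counts.

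H19 in NEJ723 was at 14.2 CPM with each spot weighted equally and 35.4 CPM in spots outside the in-tissue call. With the lowest against the highest 10% of spots by H19, the median log2 ratio of the lower genes was -1.50 in NEJ634, 0.94 in NEJ687 and 1.05 in NEJ146, and that of the higher genes in NEJ146 turned from 0.05 to -0.10. For single genes, 1310 values stayed, 269 moved and 1 turned its sign, Cyp2e1 with each spot weighted equally, at a smallest log2 ratio of 1.17. The cause was not tested in any of these. Depth limits genes with few UMIs in NEJ723, such as Mettl7b with 2 and Cyp2c50 and Phlda2 with 3.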
